A study of Saccharomyces cerevisiae with 12 samples.

Results

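Mitochondrial ribosomal protein genes are nuclear genes whose products build the ribosome inside mitochondria. They were taken here as the genes whose standard name is MRPL, MRPS, MRP or RSM followed by a number. The rule found 67 of the 7127 gene IDs in the count tables, of which 34 are named MRPL, 9 MRPS, 11 RSM and 13 MRP. By the subunit their proteins belong to, 38 are large subunit genes and 28 are small subunit genes. The remaining gene, MRP8, was once thought to encode a mitochondrial ribosomal protein and belongs to neither. The libraries were made from total RNA of untreated BY4741 (S288C) budding yeast in mid-log growth in rich YPD medium. H2AZ_4KR, which by its name has 4 lysines of the histone variant H2A.Z changed to arginine, is set against WT_H2AZ. Ino80_K929R carries a lysine-to-arginine substitution in Ino80, the ATPase of a chromatin remodelling complex, and is set against WT_Ino80. Each of the 4 groups has 3 libraries, and each library holds 17253140 to 20164258 counted fragments. The labels give no plasmid, promoter or marker for either allele nor the cultures behind the replicates, so p-values measure the spread between these samples only.

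HTZ1, the H2A.Z gene, stood at 410.0 ± 67.0 CPM (fragment counts scaled to library size by TMM) in H2AZ_4KR and 92.3 ± 5.27 CPM in WT_H2AZ. INO80 stood at 1165 ± 89.9 CPM in Ino80_K929R and 150.4 ± 8.83 CPM in WT_Ino80 (SD, n = 3 here and below). LEU2, a marker gene, had 146.5 ± 21.1 CPM in H2AZ_4KR and 0 fragments in each WT_H2AZ library. In the Ino80 pair LEU2 had 142.5 ± 27.9 CPM in Ino80_K929R and 169.5 ± 34.5 CPM in WT_Ino80. Each allele goes together with its own RNA level, and the H2A.Z allele also with LEU2, so these cannot be told apart as sources of any difference below. The WT_Ino80 replicate 1 library stood apart, with 223922 CPM summed over cytosolic ribosomal protein genes. WT_Ino80 replicates 2 and 3 had 128862 and 137538 CPM. The subunit medians and lowest values in Ino80_K929R and the wild-type calls of mitochondrial ribosomal protein genes are given with and without this library. Most other values that draw on it include it. Among these are group means of sums and ratios, and medians by name or length class. Calls and medians of cytosolic ribosomal protein and related genes, and single-gene differences between the mutant effects, also include it.

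As background, the yeast mitochondrial ribosome makes a handful of proteins, nearly all of them membrane subunits of the respiratory chain and the ATP synthase. All of its proteins but one are encoded in the nucleus, made in the cytosol and imported, whereas its RNAs and the protein Var1 come from mitochondrial DNA. In unified ribosomal protein names the prefix u marks proteins found in all ribosomes, b those shared with bacteria and m those specific to mitochondria. In budding yeast the messages of these genes are the classic targets of Puf3, an RNA-binding protein that recognises a short element after the stop codon and controls their decay and their location near mitochondria. During growth on glucose, budding yeast ferments and holds mitochondrial genes at a moderate level, while cytosolic ribosomal protein genes are among the most strongly expressed.

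The Puf3-type element TGTANATA was therefore searched for on the sense strand in the 200 bases after each stop codon of the R64 reference genome, whose gene coordinates equal those of the count tables for all 67 genes. It was present in 38 of 38 large subunit genes (100%) and 27 of 28 small subunit genes (96.4%), with RSM22 the exception, and was not in this window of MRP8. It was present in 6 of 135 cytosolic ribosomal protein genes (4.44%) and in 844 of 5979 coding genes (14.1%). The longer form, with a C 2 bases before the element, was in 77.6% of the 67 genes, against 1.48% of cytosolic ribosomal protein genes and 4.23% of coding genes. The 67 genes held 79 elements, 1 each in 52 genes and 2 or more in 13. The variable base N was A in 36, T in 25, C in 17 and G in 1. The first element began a median of 51 bases after the stop codon, within a range of 8 to 139. Sequences from the R64 (sacCer3) RefSeq genome are shown for 10 genes on which the comparisons below turn and for MRPL3, which has the single element with G at N. Each line is 30 bases, 5′ to 3′ on the gene's strand, with the element in capitals. MRP2, MRPL20, MRP4 and RSM26 passed the adjusted p in H2AZ_4KR, and MRPS16, RSM27, MRPL27, MRPS18, MRPL28 and MRPL31 differed between the wild types.
MRP2, chrXVI:876214-876243, minus strand: ggatacgcactTGTAAATAaatacatgata
MRPL20, chrXI:599049-599078, minus strand: aataacaatcgTGTAAATActactctataa
MRP4, chrVIII:100429-100458, plus strand: taacctaaactTGTACATAtgcccatatat
RSM26, chrX:619111-619140, plus strand: atcttatatacTGTAAATAgttttatttta
MRPS16, first element, chrXVI:528881-528910, minus strand: tatgtatatgtTGTATATAtgttttacttg
RSM27, chrVII:922547-922576, plus strand: aactcatttcaTGTACATAcaaaatcaaaa
MRPL27, chrII:768698-768727, plus strand: ttcaatatgcgTGTAAATActagttttcga
MRPS18, chrXIV:58860-58889, plus strand: atatatattcgTGTAAATAattcgattttt
MRPL28, first element, chrIV:1386537-1386566, plus strand: ctgtctcctgcTGTAAATAactgatgatca
MRPL31, chrXI:185225-185254, minus strand: aaaatttcatcTGTATATAgtttaatcatt
MRPL3, first element, chrXIII:323054-323083, plus strand: gtttgccatttTGTAGATAgagaactcctt
The genes that were higher and those that were lower between the wild types, such as RSM27 and MRPL31, both hold the element. As 38 of 38 large and 27 of 28 small subunit genes hold it, this cannot bear on the direction of a difference. A match is a string of letters and not a measured binding site.

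**Figure D1:**
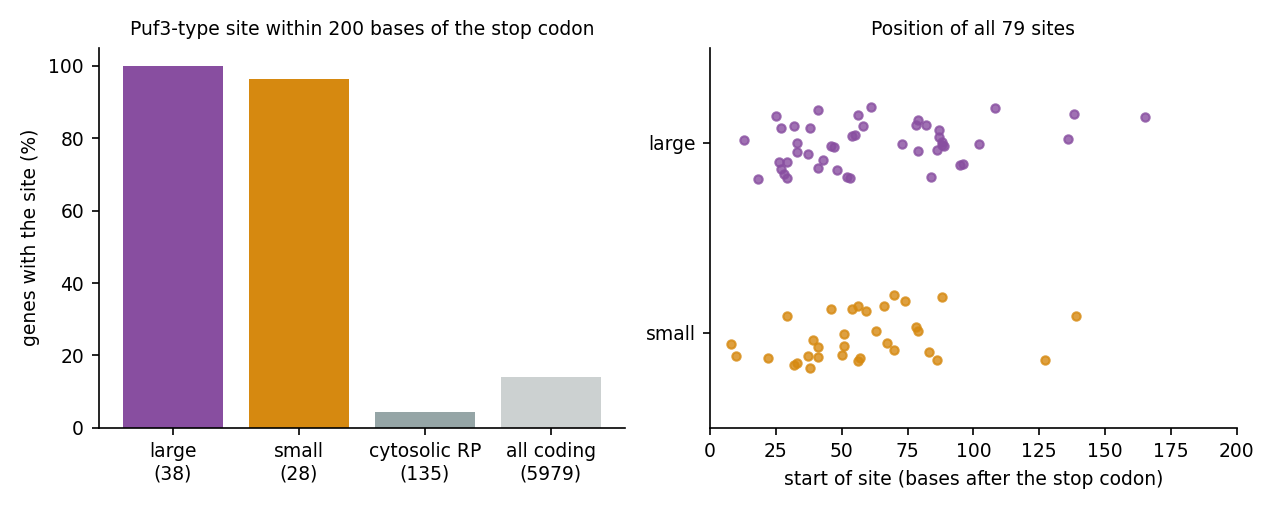
Left, percentage of genes with TGTANATA in the 200 bases after the stop codon, by gene group with the number of genes in brackets. Right, start of each of the 79 elements in bases after the stop codon, 1 point per element, for the large and the small subunit. The bars stand at 100% and 96.4% for the subunits and at 4.44% and 14.1% for the other groups, and most elements begin within 100 bases of the stop codon.

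The RNA levels of the large subunit genes lay in a narrow band. Levels between genes are compared as CPM per kb of gene model, averaged over the 12 libraries. Fragments overlapping a second gene model were not counted, so 5 genes whose models overlap another by over 10% are left out of the ranges that follow: MRPL38, MRPL51, RSM7, MRPL9 and MRPL19. The other 34 large subunit genes spanned 44.0 to 147 CPM per kb, a 3.34-fold range, with a median of 68.6. The other 27 small subunit genes spanned 18.4 to 257.8 CPM per kb, a 14.02-fold range, with a median of 80.6. The low end of this range is RSM22 alone, which has no unified ribosomal protein name, and the next lowest gene, MRP13, stood at 34.1. Over all genes tested the median was 41.6 CPM per kb, and over cytosolic ribosomal protein genes it was 1925 CPM per kb. Both subunits thus stood above the middle of the genome and far below their cytosolic counterparts.

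Among large subunit genes the highest levels per kb were those of MRPL39 (bL33m, 147), MRPL36 (bL31m, 125) and MRPL23 (uL13m, 103), and the lowest, without an overlap, was that of MRPL15 (mL57, 44.0). In the small subunit MRPS12 (uS12m) stood highest at 257.8 CPM per kb, followed by MRPS9 (uS9m) at 143 and MRPS18 (uS11m) at 132. The bacterial counterpart of MRPS12 lies at the decoding centre. The lowest small subunit genes were RSM25 (mS23) at 49.8, MRP13 (mS44) at 34.1 and RSM22 at 18.4 CPM per kb. RSM22, which encodes a methyltransferase-like protein needed for mitochondrial translation, thus had both the lowest level of its subunit and no element in its window. MRP8, which belongs to neither subunit, also lacked the element in this window and stood at 364 CPM per kb. That was above MRPS12, the highest gene of either subunit. In the small subunit the 16 genes with a u or b name had a median of 98.3 CPM per kb and the 10 with an m name 59.6 CPM per kb, with ranges of 58.9 to 257.8 and 34.1 to 117. In the large subunit the medians of the same classes were 68.6 (21 genes) and 67.6 CPM per kb (13 genes). The small subunit classes also differ in model length. Most of the m models are 795 bases or longer, and most of the u or b models are 714 bases or shorter. Among single genes, MRPL39 has the shortest model of either subunit (213 bases) and RSM22 the longest (1887 bases). The next shortest models were those of MRPL33 (261 bases), RSM19 (276 bases) and MRP10 (288 bases). Their levels were 64.8, 64.8 and 115 CPM per kb. The part of length in levels per kb, of classes or of single genes, was not tested.

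By group, MRPS12 stood at 289.5 ± 87.6 CPM per kb in H2AZ_4KR, 249 ± 72.4 in WT_H2AZ, 191 ± 49.2 in Ino80_K929R and 302 ± 127 in WT_Ino80, levels that overlap within their spread. RSM22 stood at 18.5 ± 1.23, 17.1 ± 2.22, 19.2 ± 3.86 and 18.6 ± 4.73 CPM per kb in the same groups. The top and the bottom of the small subunit therefore lay apart in every group. MRPL38 (uL14m) had only 9, 10, 17 and 17 fragments summed over the 3 libraries of H2AZ_4KR, WT_H2AZ, Ino80_K929R and WT_Ino80. Of its model, 87.8% overlaps YKL169C, and it was too low to test. MRPL51 (mL43), with 76.4% of its model overlapped by YPR099C, stood at 9.82 CPM per kb. The values of MRPL38 and MRPL51 are therefore not levels of their whole messages.

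**Figure D2:**
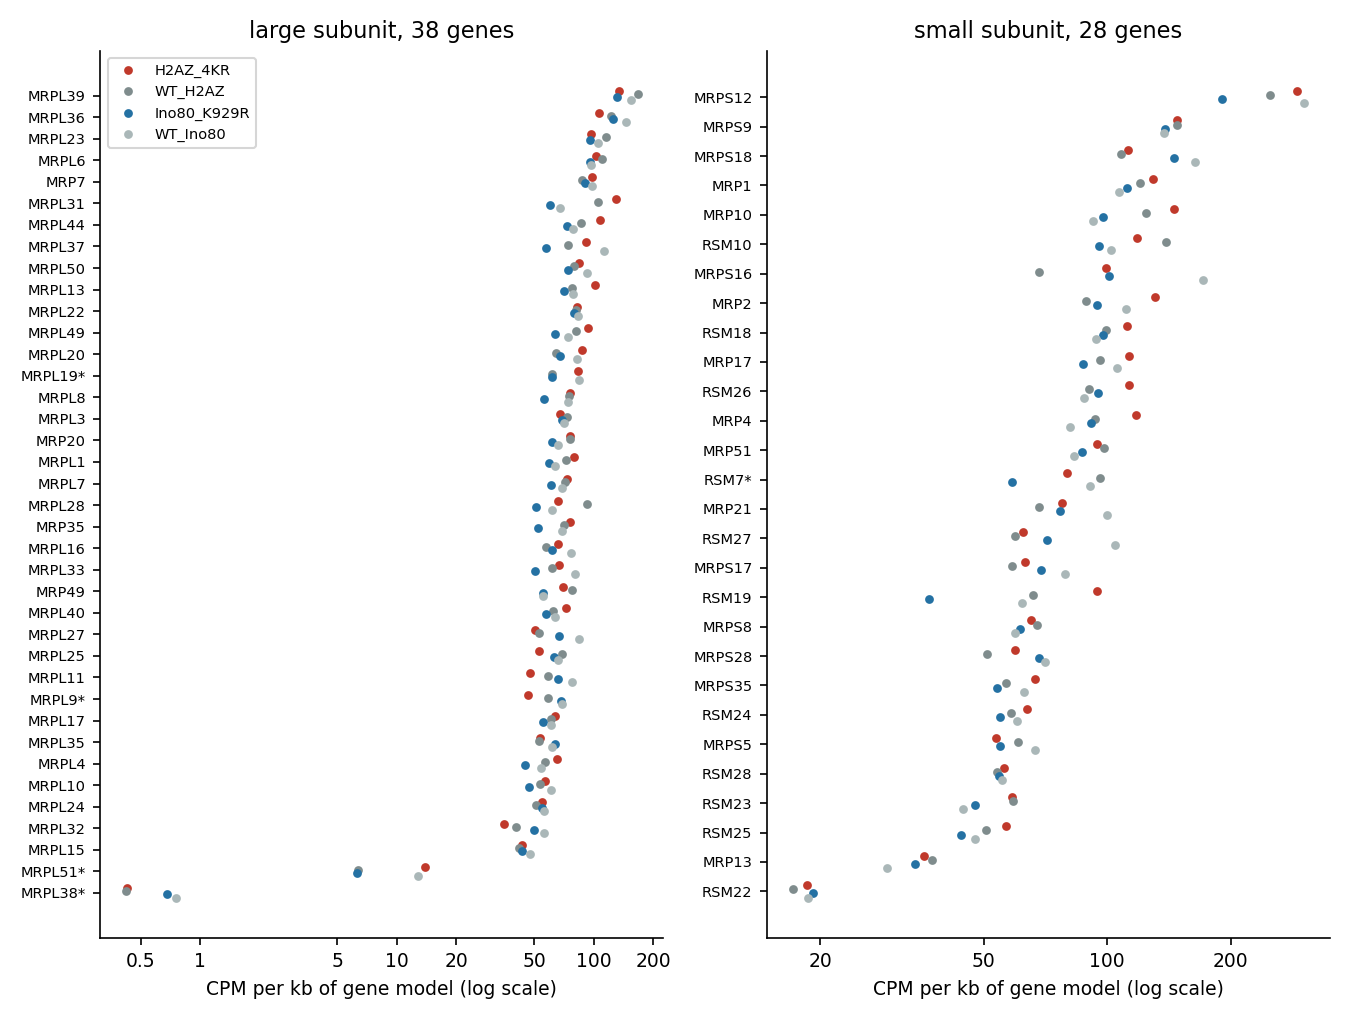
CPM per kb of gene model (log scale) of each large subunit (left) and small subunit (right) gene, 1 point per group mean of 3 libraries, with genes in order of their mean over 12 libraries. An asterisk marks a model that overlaps another by over 10%, which lowers the count. Large subunit genes without an asterisk lie between 44.0 and 147 CPM per kb on average, and MRPS12 and RSM22 mark the ends of the small subunit.

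Summed over each subunit, the mutants did not stand outside the spread of their wild types. The 38 large subunit genes summed to 1739 ± 188 CPM in H2AZ_4KR and 1687 ± 149 CPM in WT_H2AZ. They summed to 1549 ± 63.7 CPM in Ino80_K929R and 1762 ± 320.5 CPM in WT_Ino80. The 28 small subunit genes summed to 1783 ± 177 CPM in H2AZ_4KR and 1650.4 ± 131 CPM in WT_H2AZ. They summed to 1557 ± 50.3 CPM in Ino80_K929R and 1714 ± 259 CPM in WT_Ino80. In each pair the sums of both groups overlapped. Genes of both subunits together took 0.295% to 0.404% of all counted fragments of a library.

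The ratio of the large to the small sum stayed near 1, at 0.975 ± 0.0175 in H2AZ_4KR and 1.02 ± 0.0157 in WT_H2AZ. All 3 H2AZ_4KR libraries (0.957, 0.975 and 0.992) lay below all 3 WT_H2AZ libraries (1.004, 1.034 and 1.028), a gap that was not tested. In Ino80_K929R the ratio was 0.995 ± 0.0171 and in WT_Ino80 1.02 ± 0.0316, and these overlapped. The cytosolic ribosomal protein genes summed to 142846 ± 5665 CPM in H2AZ_4KR and 91701 ± 10235 CPM in WT_H2AZ, with no overlap. Their ratio to the mitochondrial sum was 41.0 ± 5.84 in H2AZ_4KR and 27.7 ± 4.92 in WT_H2AZ, and 40.3 ± 2.16 in Ino80_K929R and 46.4 ± 7.40 in WT_Ino80.

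Within a group, the same library was the highest in most of the genes. WT_Ino80 replicate 1 was the highest of its group in 53 of the 66 genes tested and the highest of all 12 libraries in 28. H2AZ_4KR replicate 2 was the highest of its group in 51 of 66, and H2AZ_4KR replicate 1 the lowest in 48. WT_H2AZ replicate 2 was the highest of its group in 52 of 66. By the sums of both subunits Ino80_K929R was the most even group, at 2998 to 3221 CPM. Over all genes its replicate 3 stood further off. The Poisson chi-square per gene was 210.8 and 143.8 between it and replicates 1 and 2, and 35.2 between these 2.

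**Figure D3:**
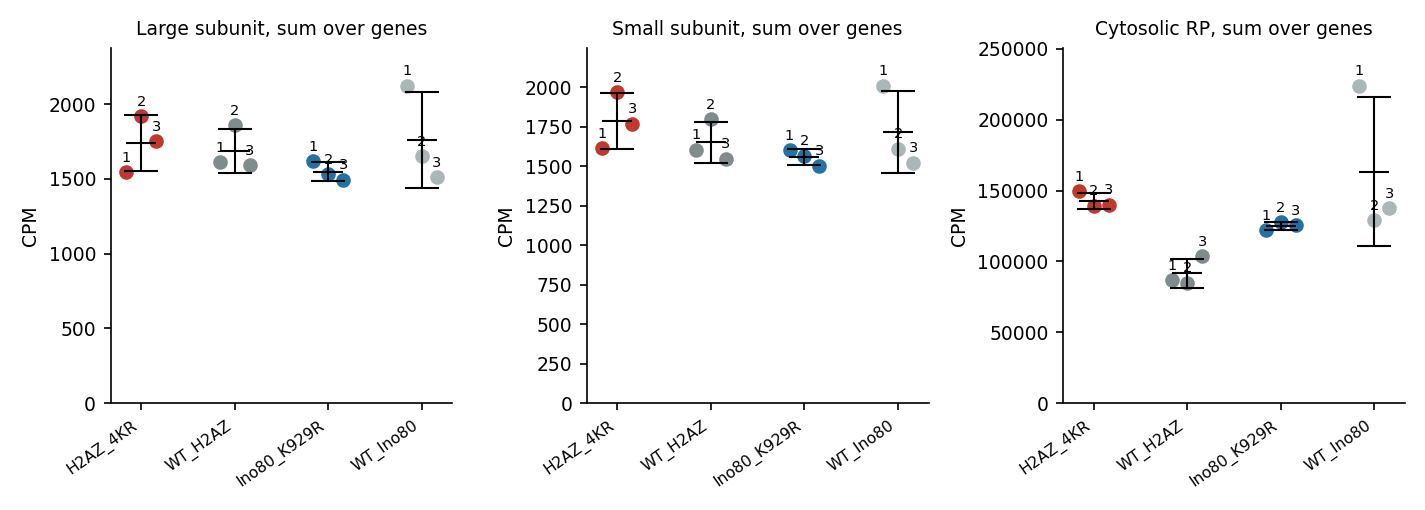
Summed CPM of large subunit, small subunit and cytosolic ribosomal protein (RP) genes in each library, numbered by replicate, with mean and SD per group as bars. Both mitochondrial sums overlap between each mutant and its wild type, the cytosolic sum does not overlap between H2AZ_4KR and WT_H2AZ, and WT_Ino80 replicate 1 is the highest library in all 3 panels.

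In H2AZ_4KR no mitochondrial ribosomal protein gene rose or fell past an adjusted p below 0.05 and a 1.5-fold change. edgeR called 0 of 66 higher and 0 of 66 lower, where 4.78% of all 6106 genes tested were higher and 7.32% lower (12.1% changed). DESeq2 also called 0 (over all genes 4.77% higher and 6.59% lower). At an unadjusted p below 0.05 in edgeR 8 of 66 were higher and 6 lower, against 17.5% and 19% of all genes. With total counts in place of TMM the genome-wide split was 138 higher and 671 lower, against 292 higher and 447 lower. The median log2 fold change was 0.07 over the 37 large subunit genes tested, 0.12 over the 28 small subunit genes and -0.01 over all genes tested. In the same fit 93 of 135 cytosolic ribosomal protein genes were higher and 0 lower, with a median of 0.64. The sign of these small medians changed with the scaling: with total counts, which moved the median of all genes to -0.15, they were -0.07 for the large and -0.02 for the small subunit.

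Without the fold limit 4 genes passed the adjusted p, all of them higher in H2AZ_4KR, where 10.5% of all genes were higher by that rule and 12.4% lower. MRP2 (uS14m) had 35.1, 51.2 and 50.4 CPM in H2AZ_4KR, against 32.9, 31.5 and 28.4 CPM in WT_H2AZ. All 3 mutant libraries lay above all 3 wild-type libraries, although replicate 1 did so narrowly. The log2 fold change was 0.56 (SE 0.15, adjusted p = 0.0235), just under the fold limit. Without H2AZ_4KR replicate 1 it was 0.72 (adjusted p = 0.00348) and without WT_H2AZ replicate 1 it was 0.60 (adjusted p = 0.0398), both past the limit.

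MRPL20 (mL58) had 41.6, 56.9 and 55.4 CPM in H2AZ_4KR, against 36.0, 39.9 and 37.9 CPM in WT_H2AZ, and the log2 fold change was 0.44 (SE 0.13, adjusted p = 0.0395). MRP4 (uS2m) had 152, 139.7 and 127 CPM in H2AZ_4KR, against 112, 117 and 103 CPM in WT_H2AZ, with 0.33 (SE 0.10, adjusted p = 0.0420). RSM26 (mS42), of the superoxide dismutase family by sequence, had 85.6, 96.7 and 89.5 CPM in H2AZ_4KR, against 70.9, 77.5 and 68.9 CPM in WT_H2AZ, with 0.33 (SE 0.10, adjusted p = 0.0418). In none of these did the groups overlap, and the fitted folds were 1.35, 1.26 and 1.25. The adjusted p of all 4 passed 0.05 with DESeq2 and missed it with total counts, in 1 fit of 12 libraries and without H2AZ_4KR replicate 2 or WT_H2AZ replicate 3. It was also missed by MRP2, MRPL20 and RSM26 without H2AZ_4KR replicate 3, by MRP4 without H2AZ_4KR replicate 1, by MRPL20, MRP4 and RSM26 without WT_H2AZ replicate 1, and by MRP2, MRPL20 and MRP4 without WT_H2AZ replicate 2. Over all alternatives it ranged from 0.00348 to 0.206 for MRP2, 0.00788 to 0.173 for MRPL20, 0.0160 to 0.244 for MRP4 and 0.0168 to 0.267 for RSM26. Of the 4 genes, 3 are small subunit genes and 1 is a large subunit gene.

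Separation of the groups was seen in both directions, in each in a smaller share of these genes than of all genes tested. CPM did not overlap between the groups in 7 of 66 genes that were higher in H2AZ_4KR (18.4% of all genes tested), which are MRPL20, MRPL24, MRPL40, MRPL44, MRP2, MRP4 and RSM26. Another 5 of 66 were lower without overlap (22.2% of all genes tested), which are MRPL11, MRPL23, MRPL39, MRPL9 and RSM10. Both directions were thus present in the large subunit, with 4 genes each.

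The lowest large subunit log2 fold changes were those of MRPL28 (mL40), MRPL25 (mL59) and MRPL9 (uL3m), at -0.48 (adjusted p = 0.0670), -0.37 (adjusted p = 0.103) and -0.34 (adjusted p = 0.0826), none past the test. MRPL28 had 25.2, 36.1 and 26.7 CPM in H2AZ_4KR, against 35.8, 49.1 and 37.95 CPM in WT_H2AZ. H2AZ_4KR replicate 2 overlapped the wild type by a narrow margin, and without it the log2 fold change was -0.66 (adjusted p = 0.0236). With total counts it was -0.63 (adjusted p = 0.0324), also past both limits. The highest large subunit value was that of MRPL51, the overlapped gene, at 1.11 (SE 0.50, adjusted p = 0.133), from 1.61, 7.92 and 8.05 CPM in H2AZ_4KR and 2.74, 3.34 and 1.998 CPM in WT_H2AZ. Replicate 1 lay below every wild-type library, and without it the value was 1.56 (adjusted p = 0.00474). MRPL19 (uL11m) followed MRPL51 and MRPL20 at 0.43 (adjusted p = 0.301).

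In the small subunit MRP2 was followed by MRPS16 (bS16m) and RSM19 (uS19m), neither past the test. MRPS16 had 26.1, 43.9 and 39.2 CPM in H2AZ_4KR, against 18.7, 31.7 and 24.6 CPM in WT_H2AZ, and the log2 fold change was 0.54 (SE 0.22, adjusted p = 0.106). RSM19 had 17.8, 32.9 and 27.4 CPM in H2AZ_4KR, against 13.2, 25.9 and 15.6 CPM in WT_H2AZ, with 0.51 (SE 0.27, adjusted p = 0.206). In both genes the highest wild-type library, replicate 2, overlapped the mutant. Without that library the log2 fold changes were 0.76 (adjusted p = 0.0442) and 0.87 (adjusted p = 0.0401). Without H2AZ_4KR replicate 1 MRPS16 stood at 0.73 (adjusted p = 0.0263). The lowest small subunit values were those of RSM7 (uS7m, -0.27), RSM10 (uS10m, -0.23) and MRPS5 (uS5m, -0.18), with adjusted p of 0.215, 0.128 and 0.364.

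**Figure D4:**
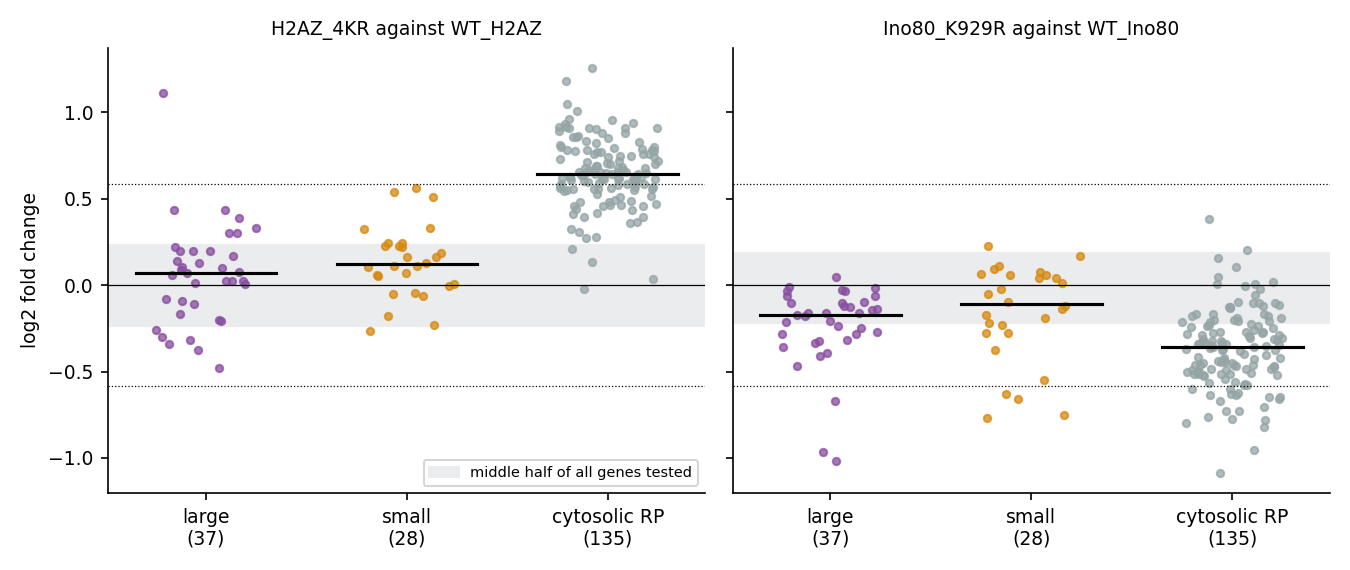
log2 fold change of each gene tested, H2AZ_4KR against WT_H2AZ (left) and Ino80_K929R against WT_Ino80 (right), by gene group with the number of genes in brackets. Black bars are medians, dotted lines the 1.5-fold limits and the grey band the interquartile range of all genes tested. Large and small subunit medians are 0.07 and 0.12 on the left and -0.17 and -0.11 on the right, next to 0.64 and -0.36 for cytosolic ribosomal protein (RP) genes.

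In Ino80_K929R no mitochondrial ribosomal protein gene passed the test either. edgeR called 0 of 66 in each direction, with or without the fold limit, where 0.0162% of the 6161 genes tested changed (1 gene, INO80 itself). DESeq2 called 0 (over all genes 0.0447% higher and 0.0746% lower). At an unadjusted p below 0.05 in edgeR 4 of 66 were lower and 0 higher, against 3.86% and 2.3% of all genes. The libraries of this pair varied more: the common biological coefficient of variation was 0.254, against 0.139 in the H2AZ pair, and the median over the genes described here was 0.201 against 0.126. The median log2 fold change was -0.17 over 37 large subunit genes and -0.11 over 28 small subunit genes, against -0.01 over all genes tested and -0.36 over cytosolic ribosomal protein genes. Of the large subunit genes, 1 of 37 had a value above 0, and of the small subunit genes 11 of 28. Without WT_Ino80 replicate 1 the medians were -0.04 and -0.02.

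All Ino80_K929R libraries lay below all WT_Ino80 libraries in 11 of 66 genes (8.26% of all genes tested) and above them in 0 (7.63%). The 11 are MRPL27, MRPL33, MRPL37, MRPL4, MRPL51, MRPL7, MRPS16, MRPS35, RSM19, RSM24 and RSM7, which makes 6 large and 5 small subunit genes. None of them passed the adjusted p, which was 0.722 for the lowest genes. The lowest log2 fold changes of each subunit follow, with and without WT_Ino80 replicate 1.

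MRPL37 (mL54) had 22.5, 16.96 and 15.4 CPM in Ino80_K929R, against 51.4, 29.7 and 26.1 CPM in WT_Ino80. All mutant libraries lay below all wild-type libraries, and replicate 1 was the highest in WT_Ino80. The log2 fold change was -0.96 (SE 0.29, adjusted p = 0.722), and -0.61 without WT_Ino80 replicate 1. MRPL51 had 2.91, 3.30 and 1.78 CPM in Ino80_K929R, against 7.13, 4.02 and 5.06 CPM in WT_Ino80, with -1.02 (SE 0.39, adjusted p = 0.722), and -0.77 without that library. MRPL33 (uL30m) had 14.9, 11.02 and 13.7 CPM in Ino80_K929R, against 31.2, 16.1 and 15.9 CPM in WT_Ino80, with -0.67 (SE 0.31, adjusted p = 0.722), and -0.28 without that library.

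MRPS16 had 41.4, 37.99 and 31.3 CPM in Ino80_K929R, against 87.7, 43.7 and 56.9 CPM in WT_Ino80, and the log2 fold change was -0.77 (SE 0.26, adjusted p = 0.722), and -0.45 without WT_Ino80 replicate 1. RSM19 had 11.8, 9.90 and 8.78 CPM in Ino80_K929R, against 23.2, 16.2 and 12.03 CPM in WT_Ino80, with -0.75 (SE 0.29, adjusted p = 0.722), and -0.47 without it. Both kept the mutant libraries below the wild type, each by a margin smaller than the spread within either group. MRPS12 had 111, 87.2 and 66.0 CPM in Ino80_K929R, against 206, 93.5 and 119 CPM in WT_Ino80, with -0.66 (SE 0.31, adjusted p = 0.722), and -0.27 without it. The groups overlapped in MRPS12. RSM19 and MRPS12 are neighbours on the minus strand of chromosome XIV, from 695052 to 695327 and from 694361 to 694822, and elements after the RSM19 stop codon lie in the 200 bases before the MRPS12 start codon.

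At the other end, the highest small subunit values were those of MRP13 (0.22), MRP4 (0.17) and RSM26 (0.11), with adjusted p of 0.795, 0.746 and 0.826. The highest large subunit values were those of MRPL35 (mL38, 0.05), MRP49 (mL61, -0.01) and MRPL9 (-0.02). The signs of MRP49 and MRPL9 changed under other scalings, as both are close to 0. By unified name, the median log2 fold change in Ino80_K929R was -0.20 over 40 genes with a u or b name, of which 5 were above 0, and -0.12 over 24 genes with an m name, of which 6 were above 0. In H2AZ_4KR the same classes had medians of 0.09 and 0.09. Split by subunit, the Ino80_K929R medians of the m class were -0.15 over 14 large and 0.02 over 10 small subunit genes. Those of the u or b class were -0.21 over 23 large and -0.19 over 17 small subunit genes. In the small subunit the classes also differ in model length, and its part was not tested.

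The Ino80_K929R values followed gene length, as they did over the genome. Members with a model under 500 bases had a median log2 fold change of -0.28 (24 genes), those of 500 to under 800 bases -0.17 (17 genes) and those of 800 bases or more -0.04 (24 genes). Over all genes tested the medians of these classes were -0.30, -0.19 and 0.08. Spearman's rho between log2 fold change and length, a description across 65 subunit genes that share their libraries, was 0.51, and it was 0.55 over all genes tested. In H2AZ_4KR the class medians of the members were 0.18, 0.06 and 0.07, with a rho of -0.16. The members under 500 bases without a model overlap over 10% summed to 39.7% of those of 500 bases or more in WT_Ino80 replicate 1 and to 27.5% to 34.8% in the other 11 libraries. In that library 23 of the 24 members under 500 bases were the highest of their group, against 15 of the 24 members of 800 bases or more. With an offset that removes the trend of counts with length within each library, the Ino80_K929R medians were -0.04 for the large and -0.01 for the small subunit. The offset was fitted to these same libraries, so it draws genes that follow the trend toward 0 whatever its source. The part of library composition in these values was not tested.

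**Figure D5:**
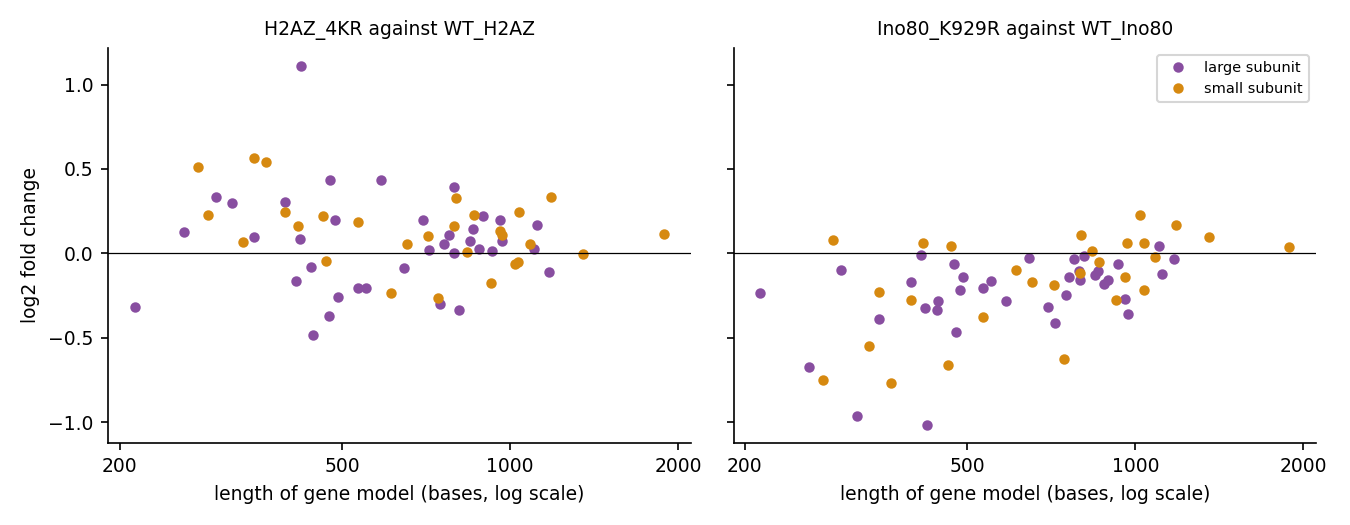
log2 fold change of each large and small subunit gene tested against the length of its gene model in bases (log scale), for H2AZ_4KR against WT_H2AZ (left) and Ino80_K929R against WT_Ino80 (right). In the right panel short genes lie lowest, with a median of -0.28 under 500 bases and -0.04 from 800 bases on.

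The difference between the mutant effects was tested in 1 fit of all 12 libraries, where 4.25% of 6235 genes passed both limits, 1.99% with a higher effect in H2AZ_4KR and 2.26% with a lower one. Without the fold limit the shares were 4.28%, 2.02% and 2.26%, and 0 of 66 members passed. With total counts the genome-wide split was 110 higher and 274 lower, against 124 and 141. These genome-wide counts changed with single libraries: they were 7 to 15 higher and 19 to 32 lower without any 1 of the WT_H2AZ libraries, H2AZ_4KR replicate 2 or 3, or Ino80_K929R replicate 1 or 2. They were 63 and 59 without H2AZ_4KR replicate 1, and 241 and 353 without Ino80_K929R replicate 3. Without WT_Ino80 replicate 1, 2 or 3 they were 166 and 192, 241 and 179, and 221 and 209. edgeR called 0 of 66 members in either direction, while at an unadjusted p below 0.05 there were 11 with a higher effect in H2AZ_4KR and 0 with a lower one, against 11.9% and 12.2% of all genes. DESeq2 called 4 of 66 with a higher effect, MRPL37, MRPL51, MRPS16 and RSM19, and 0 with a lower one, against 5.51% and 5.11% of all genes. Their edgeR differences were 1.26 (SE 0.39, adjusted p = 0.0774), 2.13 (SE 0.71, adjusted p = 0.0930), 1.31 (SE 0.39, adjusted p = 0.0667) and 1.26 (SE 0.44, adjusted p = 0.104) on the log2 scale. WT_Ino80 replicate 1 was the highest WT_Ino80 library in all 4 genes, and these differences include it. All 4 have models under 500 bases. The median difference was 0.45 over members under 500 bases and 0.13 over those of 800 bases or more, against 0.44 and -0.13 over all genes of these classes. Of the cytosolic ribosomal protein genes, 42 of 135 had a higher effect in H2AZ_4KR by the edgeR test.

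Between the wild types 6 mitochondrial ribosomal protein genes differed. In WT_Ino80 against WT_H2AZ 4 of 66 were higher (17.7% of all genes tested) and 2 lower (15%), where 32.7% of all genes changed. Without the fold limit 7 were higher (22.9%) and 5 lower (20.3%), where 43.1% of all genes changed. Each wild type stands in its own table and has its own LEU2 status, so strain and table cannot be told apart. In the same contrast 102 of 135 cytosolic ribosomal protein genes were higher in WT_Ino80 and 0 lower.

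MRPS16 differed most, with 87.7, 43.7 and 56.9 CPM in WT_Ino80, against 18.7, 31.7 and 24.6 CPM in WT_H2AZ. The groups did not overlap. The log2 fold change was 1.33 (SE 0.28, adjusted p = 0.00258), and it was 0.99 (adjusted p = 0.00980) without WT_Ino80 replicate 1. This call held under every alternative run.

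RSM27 (mS33) had 55.2, 27.2 and 22.3 CPM in WT_Ino80, against 18.7, 21.3 and 19.6 CPM in WT_H2AZ, and the log2 fold change was 0.81 (SE 0.27, adjusted p = 0.0277). MRPL27 (mL41) had 44.3, 33.3 and 34.0 CPM in WT_Ino80, against 13.6, 29.6 and 26.6 CPM in WT_H2AZ, with 0.67 (SE 0.24, adjusted p = 0.0412). MRPS18 had 135, 88.4 and 97.4 CPM in WT_Ino80, against 67.1, 84.5 and 60.6 CPM in WT_H2AZ, with 0.59 (SE 0.20, adjusted p = 0.0287). In these 3 genes replicate 1 was the highest WT_Ino80 library, and without it the values were 0.30, 0.51 and 0.38, none past the test (adjusted p of 0.129, 0.139 and 0.132). RSM27 also did not pass without any single WT_H2AZ library, MRPS18 without WT_H2AZ replicate 1 or 3, and MRPL27 without these or without WT_Ino80 replicate 3. The length offset ended all 3 calls, at 0.55 for RSM27, 0.47 for MRPL27 and 0.36 for MRPS18. Total counts ended those of MRPL27 (0.59, adjusted p = 0.0805) and MRPS18 (0.50, adjusted p = 0.0600), and MRPS18 missed the fold limit with DESeq2 and with RLE factors (0.58 in both). With all libraries the groups did not overlap in any of them.

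MRPL31 (mL60) had 34.7, 23.0 and 22.8 CPM in WT_Ino80, against 35.7, 52.7 and 36.98 CPM in WT_H2AZ, and the log2 fold change was -0.64 (SE 0.20, adjusted p = 0.0228). MRPL28 had 34.9, 26.4 and 20.8 CPM in WT_Ino80, against 35.8, 49.1 and 37.95 CPM in WT_H2AZ, with -0.59 (SE 0.22, adjusted p = 0.0490), just past the fold limit. WT_Ino80 replicate 1 was here the closest to the wild type of the other table, and without it the values were -0.88 (adjusted p = 0.00441) and -0.81 (adjusted p = 0.0139). Without WT_H2AZ replicate 2, WT_Ino80 replicate 2 or WT_Ino80 replicate 3 neither passed, and MRPL28 also did not pass without WT_H2AZ replicate 1 or 3.

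The 200 bases before the start codon were searched on both strands for motifs known from promoters of ribosomal and mitochondrial genes. The core of the site of the general regulatory factor Abf1, TCA and ACG with any 6 bases between them, was in 26.9% of the 67 genes, against 7.41% of cytosolic ribosomal protein genes and 10.1% of 5979 coding genes. The Reb1 site TTACCCG was in 11.9% of the 67 genes and 5.69% of coding genes. AATTTT, which marks the promoters of these genes in Candida albicans, was in 29.9% of the 67 genes and 42.6% of coding genes. The CCAAT box of the Hap complex was in 26.9% and 28.8%, GATGAG in 10.4% and 13.4%, and the Rap1 core, CACCC and CA with any 3 bases between them, in 1.49% and 1.40%. The windows of MRPS16, RSM27 and MRPL28, which differed between the wild types and hold the Abf1 core, are shown 5′ to 3′ on the gene's strand, with the Abf1 core and AATTTT on either strand in capitals.
MRPS16, chrXVI:529351-529550, minus strand: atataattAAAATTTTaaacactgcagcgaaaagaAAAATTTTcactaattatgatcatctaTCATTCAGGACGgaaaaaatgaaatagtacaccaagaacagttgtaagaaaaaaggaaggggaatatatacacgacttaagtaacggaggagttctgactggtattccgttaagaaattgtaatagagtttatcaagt
RSM27, chrVII:921975-922174, plus strand: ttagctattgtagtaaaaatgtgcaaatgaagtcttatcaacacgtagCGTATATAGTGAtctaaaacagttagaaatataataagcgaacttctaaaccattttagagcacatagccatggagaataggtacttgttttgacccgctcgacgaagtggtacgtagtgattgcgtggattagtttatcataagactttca
MRPL28, chrIV:1385873-1386072, plus strand: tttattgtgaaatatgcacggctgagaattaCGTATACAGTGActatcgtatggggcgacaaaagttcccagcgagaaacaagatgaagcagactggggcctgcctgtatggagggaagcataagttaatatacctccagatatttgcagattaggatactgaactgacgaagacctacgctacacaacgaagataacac
MRPS16 holds both runs of AATTTT on both strands, which makes 4 matches, and the Abf1 core on the gene's strand, whereas RSM27 and MRPL28 hold the Abf1 core on the other strand. RSM27 and MRPL28 differed in opposite directions between the wild types. MRPL27 and MRPS18 also hold the core and MRPL31 does not. The matches describe letters only, and no binding was measured.

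PUF3 itself had 21.6, 21.03 and 24.8 CPM in WT_Ino80, against 44.9, 40.9 and 38.8 CPM in WT_H2AZ, which gives -0.89 on the log2 scale (SE 0.16, adjusted p = 0.00112). Its level was 33.8, 32.8 and 36.0 CPM in Ino80_K929R and 55.0, 48.3 and 35.6 CPM in H2AZ_4KR, with log2 fold changes of 0.60 (adjusted p = 0.722) and 0.16 (adjusted p = 0.475) against their own wild types, neither past the test. Between the wild types, the 64 tested genes with the element had a median log2 fold change of 0.03 (range -0.64 to 1.33), close to the 0.03 of all genes tested. The part of PUF3 in these values was not tested. PUF3 is 1 of 9 listed regulator genes, with HAP1, HAP2, HAP3, HAP4, HAP5, SFP1, IFH1 and FHL1. Between the wild types 2 of the 9 were higher and 4 lower, PUF3 among the latter, where 17.7% and 15% of all genes were. Their log2 fold changes ranged from -1.01 to 1.51. MRP8 had 252, 260.4 and 239 CPM in H2AZ_4KR, 269, 234 and 251 CPM in WT_H2AZ, 248, 255 and 133 CPM in Ino80_K929R and 374, 158 and 215 CPM in WT_Ino80, and passed no test.

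The other proteins of the mitochondrial ribosome and of mitochondrial translation were read from lists. Among 8 other large and 5 other small subunit genes tested, which carry names such as IMG1, MNP1, NAM9 and PET123, edgeR called 0 in either mutant, and all 13 hold the element. Their median log2 fold changes were 0.09 and 0.13 in H2AZ_4KR and -0.25 and -0.07 in Ino80_K929R. At an unadjusted p below 0.05 there was 1 large subunit gene higher in H2AZ_4KR (17.5% of all genes tested) and 1 lower in Ino80_K929R (3.86%). Between the wild types IMG1 (0.76, adjusted p = 0.0345) and MNP1 (0.65, adjusted p = 0.0226) were higher in WT_Ino80. These are 2 of the 8 large subunit genes, next to 17.7% of all genes tested. Without the fold limit 1 of the 8 was lower, next to 20.3% of all genes.

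Of 14 translational activators, proteins that start translation of single mitochondrial messages, 1 rose and 1 fell in H2AZ_4KR, near the shares over all genes (4.78% higher and 7.32% lower). PET122, an activator of COX3 translation, had 19.4, 23.3 and 26.7 CPM in H2AZ_4KR, against 12.03, 13.9 and 15.2 CPM in WT_H2AZ, and the log2 fold change was 0.76 (SE 0.17, adjusted p = 0.00899). AEP2, needed for expression of OLI1 (ATP9), had 22.6, 25.4 and 22.3 CPM in H2AZ_4KR, against 44.6, 39.8 and 34.6 CPM in WT_H2AZ, with -0.76 (SE 0.13, adjusted p = 0.00316). Neither pair of groups overlapped, and for AEP2 the difference from the Ino80_K929R effect also passed (-0.79, adjusted p = 0.0438). None of 12 translation factors, 13 aminoacyl-tRNA synthetases or 12 assembly and membrane insertion genes passed both limits in either mutant. At an unadjusted p below 0.05 in H2AZ_4KR these lists held 1, 1 and 2 higher genes and 1, 1 and 3 lower ones, against 17.5% and 19% of all genes. In Ino80_K929R 1 translation factor gene was higher by that rule, against 2.3% of all genes. Without the fold limit OXA1, the inner membrane insertase and the neighbour of PET122 on chromosome V, was higher in H2AZ_4KR (0.47, adjusted p = 0.00866). The initiation factor gene AIM23 (-0.54, adjusted p = 0.00768), the isoleucyl-tRNA synthetase gene ISM1 (-0.36, adjusted p = 0.0266) and the activator gene PET494 (-0.30, adjusted p = 0.0461) were lower. Without the fold limit 10.5% of all genes were higher in H2AZ_4KR and 12.4% lower. Between the wild types 1 of 12 translation factor genes was higher in WT_Ino80 and 2 were lower. Of 13 synthetase genes 0 were higher and 1 lower, and of 14 activator genes 1 was higher and 2 lower. None of the 12 assembly and membrane insertion genes passed both limits there, where 17.7% of all genes were higher and 15% lower.

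The partners encoded in mitochondrial DNA could not be measured. VAR1, the small subunit protein gene, had 0 fragments in all 12 libraries, 15S rRNA had 29 fragments in all and 21S rRNA had 76, and none of the 11 mitochondrially encoded genes was tested.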

How the data were processed

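Per the file headers, the authors made the deposited gene counts with featureCounts 2.0.1, as fragments over exons without strand, leaving out fragments that map to several places or overlap several genes. Reads were aligned with Bowtie 0.12.2 to sacCer3, per the submitters' processing notes. There is 1 table for the H2A.Z strains and 1 for the Ino80 strains, with 3 libraries a group. The 67 genes and all other lists and tests were chosen with earlier results of these data known.

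Within each table edgeR 4.0.16 (R 4.3.3) tested all genes past a filter at a minimum count of 10, with TMM scaling, the quasi-likelihood test and Benjamini-Hochberg adjustment. The difference between mutant effects and the wild-type contrast came from 1 fit of 12 libraries. A call needed an adjusted p below 0.05 and a 1.5-fold change. SE is the size of the log2 fold change over the root of F. The method was tested on simulated data. Alternatives were DESeq2 1.42.0, RLE factors, total counts, no filter, no fold limit, a replicate block, a length offset (loess, span 0.5), 1 joint fit and leaving out each library. The lowest detectable level, 3 fragments, was 0.137 to 0.198 CPM, and covers counting error only. In bulk RNA, fewer cells and less RNA per cell cannot be told apart. Genes named are the 3 highest and 3 lowest of each subunit by level or log2 fold change and members past a test. From the related lists, genes past both limits in a mutant comparison are named, with IMG1 and MNP1 between the wild types. Cytosolic ribosomal protein genes, and other related genes past the wild-type test, are only counted. Genes listed because their groups do not overlap, those past the adjusted p alone, and PUF3 were added after their values were seen.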

Additional observations from a re-analysis of the deposited data

How the results depend on the processing

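For H2AZ_4KR the count of members higher was 0, and it was 4 with no fold limit and 0 to 3 with single libraries left out (without H2AZ_4KR replicate 1: MRP2, MRPL51 and MRPS16; without WT_H2AZ replicate 2: MRPS16 and RSM19; without WT_H2AZ replicate 1: MRP2). The count lower was 0, and it was 1 with total counts and 0 to 1 with libraries left out, in each case MRPL28. The large subunit median was -0.07 with total counts and -0.078 to 0.17 with libraries left out, negative without H2AZ_4KR replicate 2. The small subunit median was -0.023 with total counts and 0.06 to 0.23 with libraries left out. For Ino80_K929R every alternative gave 0 calls, and with libraries left out the medians were -0.31 to -0.04 (large) and -0.17 to -0.02 (small). For the difference between the mutants the count of members with a higher effect was 4 with DESeq2 and 0 to 2 with libraries left out (without H2AZ_4KR replicate 1: MRPL51; without WT_Ino80 replicate 2: MRPS16; without WT_Ino80 replicate 3: MRPL20 and MRPL37). For WT_Ino80 against WT_H2AZ, 4 members were higher and 2 lower; the count higher was 2 with total counts, 1 with the length offset, 7 with no fold limit and 1 to 5 with libraries left out, and the count lower was 5 with the length offset, 5 with no fold limit and 0 to 3 with libraries left out. In Ino80_K929R the sign of MRP49 (-0.01) turned to 0.024 with total counts and 0.17 with the length offset, and ranged from -0.13 to 0.17 with libraries left out. MRPL9 (-0.02) turned to 0.027 and 0.076 in the same settings and ranged from -0.12 to 0.060. Over 32 named values and 442 alternatives, 394 kept direction and side of the limits, 26 lost the call, 12 gained it and 10 changed sign; the cause was not tested. Same-numbered libraries did not consistently deviate together (r of 0.11, 0.18 and -0.10 in the H2AZ pair, 0.34, -0.30 and -0.12 in the Ino80 pair). Differently numbered ones reached 0.56 (Ino80_K929R replicate 3 with WT_Ino80 replicate 2) and -0.47 (replicate 1 with replicate 2). Deviations from a mean of 3 are tied to each other, so these values cannot settle whether the numbers pair libraries. With the replicate block the counts were 0 and 0 in each mutant and in the difference, and 4 and 2 between the wild types. Over all genes the block left 7 higher and 25 lower in the difference, against 124 and 141, and the joint fit gave 119 higher and 227 lower in H2AZ_4KR, against 292 and 447. Low counts of MRPL38 and MRPL51, whose models overlap other genes, limit what can be said of them.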
